A study of Mus musculus with 14 samples.

Results

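The integrin subunits carried by cells of the heart were examined in left ventricles of CXCR5-/- and WT mice after aortic banding (AB) or Sham operation. The set was given by gene symbol and held 10 of the 19937 genes with a probe set of their own: Itga1, Itga5, Itga6, Itga7, Itga8, Itga11, Itgav, Itgb1, Itgb3 and Itgb5. Each was read by 1 probe set on Affymetrix mouse ST 1.0 arrays, with 1 array per mouse and 14 arrays in all. The groups were 4 CXCR5-/- AB, 4 WT AB, 3 CXCR5-/- Sham and 3 WT Sham left ventricles, taken 3 weeks after the operation from male mice. In AB the aorta is narrowed, so that the left ventricle works against a raised pressure. WT mice were C57BL/6, and CXCR5-/- mice lacked the receptor in every cell of the body, the coding region of the gene having been exchanged for a neomycin resistance gene in embryonic stem cells of another mouse strain before backcrossing to C57BL/6. The age of the mice is not given in the sources used here. All levels below are log2 values from robust multi-array average (RMA), where a difference of 1 is a doubling of the signal, and all changes are differences of such values.

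Integrins are receptors made of an alpha and a beta chain that span the cell membrane, hold cells to collagen, laminin or fibronectin outside, and pass force to the actin cytoskeleton inside through talin, kindlin and vinculin. The alpha chain largely sets the ligand, and the beta chain binds the adaptors. In the heart the beta-1 chain, Itgb1, pairs with collagen receptors (Itga1, Itga11), laminin receptors (Itga6, Itga7) and fibronectin or nephronectin receptors (Itga5, Itga8), while Itgav pairs with Itgb3 and Itgb5 as well and binds matrix proteins that carry the RGD motif. Cardiomyocytes use mainly the laminin receptor of Itga7, and Itga11 is known from fibroblasts.

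The arrays were alike as a whole, with correlations between 0.975 and 0.993 over all probe sets. Myl2, the light chain of ventricular myosin, lay at 12.35 to 12.66 on every array, as the tissue label implies. Myl7, an atrial light chain, varied more widely, and its highest values were on CXCR5-/- Sham replicates 1 and 2 and WT Sham replicate 1, so results were also computed without these 3 arrays. Alb, a transcript of liver, ranged from 3.98 to 9.74 and spread widely within groups. Cxcr5 itself went against the genotype label. It lay at 3.97 to 4.47 in hearts labelled CXCR5-/- after AB, against 3.03 to 3.30 in WT AB hearts, and at 3.85 to 4.11 in hearts labelled CXCR5-/- after Sham, against 3.23 to 3.24 in WT Sham hearts. These levels were low, at the 16.4th percentile of all genes. Whether the probe set lies within the replaced region is not known from the sources used here, so genotypes are called by their labels in every comparison between them.

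Against their Sham controls, 3 of the 10 integrin subunits passed the test in CXCR5-/- hearts and 3 in WT hearts. Itga11 rose and Itga7 fell in both genotypes, Itgb5 rose in CXCR5-/- hearts, and Itgb3 rose in WT hearts. The remaining 6 subunits, Itgb1 among them, passed in neither. In CXCR5-/- hearts 2 of the 10 were called higher and 1 lower, beside 8.28% of all genes called higher and 5.86% called lower. In WT hearts 2 were called higher and 1 lower, beside 5.1% higher and 4.22% lower among all genes. The median change of the 10 was 0.18 in CXCR5-/- hearts and 0.20 in WT hearts, where the medians over all genes were -0.01 and 0.01. In tissue made of many cell types, fewer cells of a type and less RNA per cell cannot be told apart. The test was limma with the Benjamini-Hochberg adjustment over all genes, at 0.05, here and below.

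**Figure D1:**
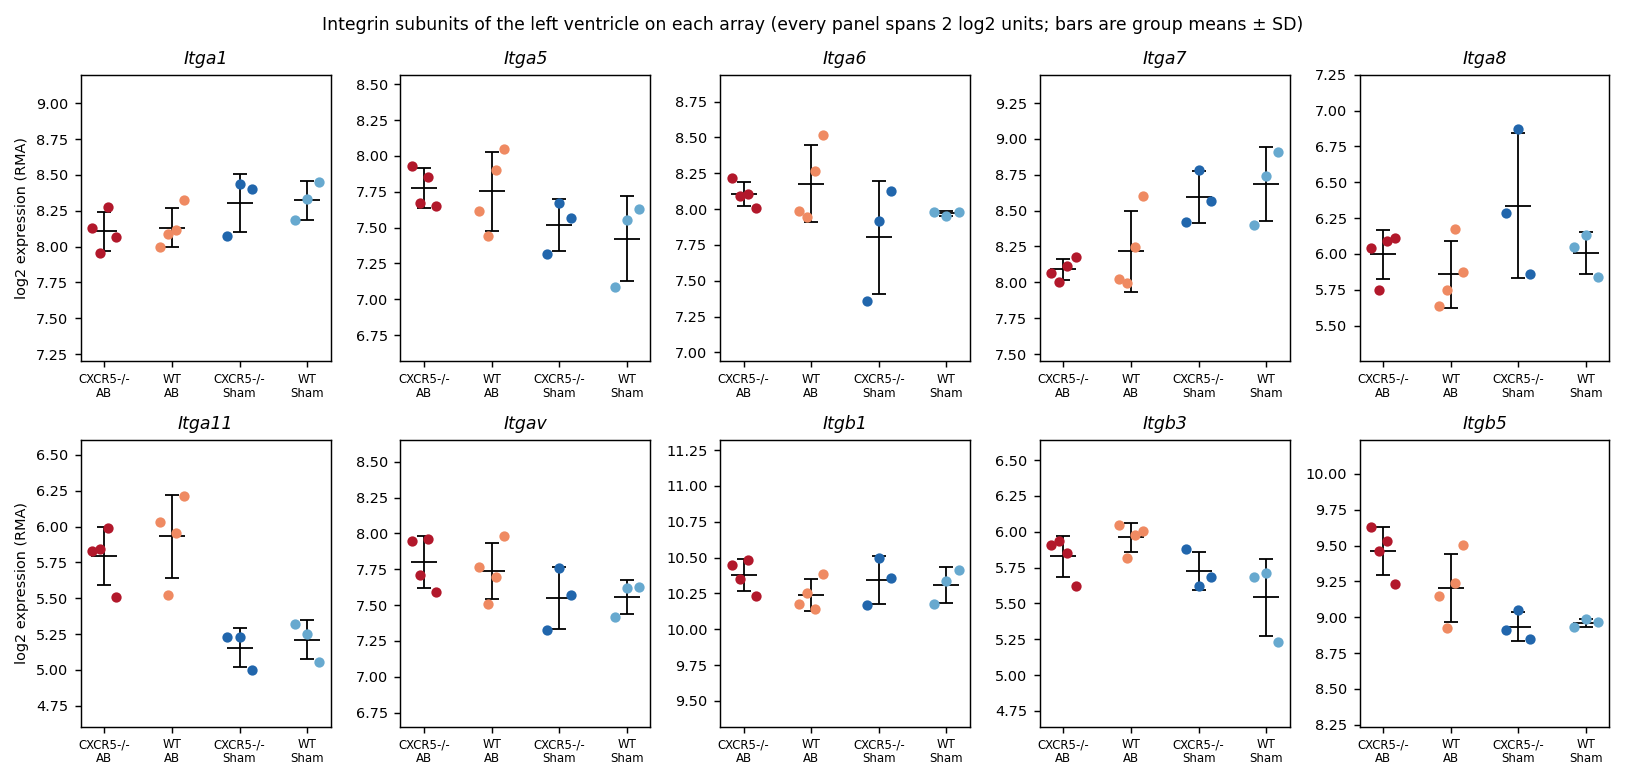
RMA log2 level of each integrin subunit on each of the 14 arrays, by group (points, in order of replicate number), with the group mean and SD (black bars). Every panel spans 2 log2 units. Itga11 stands higher in all AB arrays than in any Sham array, with 5.51 as its lowest AB value and 5.32 as its highest Sham value.

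Itga11 encodes the alpha-11 chain, which binds fibrillar collagen. It lies on chromosome 9 and was read by probe set 10586079. In CXCR5-/- AB hearts it measured 5.83, 5.85, 5.99 and 5.51, against 5.23, 5.23 and 5.0 in CXCR5-/- Sham hearts. In WT AB hearts it measured 6.03, 5.53, 5.96 and 6.21, against 5.32, 5.25 and 5.06 in WT Sham hearts. Every AB array was above every Sham array, and the lowest AB array was replicate 4 in CXCR5-/- hearts and replicate 2 in WT hearts. The change was 0.64 ± 0.14 (SE) in CXCR5-/- hearts, 1.56-fold, with an adjusted p of 0.00537, and 0.72 ± 0.14 in WT hearts, 1.65-fold, with an adjusted p of 0.00347. The group means were 5.79 ± 0.20 in CXCR5-/- AB and 5.93 ± 0.29 in WT AB (SD, n = 4 each), above 5.16 ± 0.13 in CXCR5-/- Sham and 5.21 ± 0.14 in WT Sham (SD, n = 3 each). Within AB and within Sham the genotypes differed by less than their spread. The call held with each of the 14 arrays left out in turn in both genotypes. With the 3 Sham arrays of high Myl7 left out together, which left 1 CXCR5-/- Sham array, the change in CXCR5-/- hearts was 0.79 with an adjusted p of 0.0669.

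The promoter of Itga11 is printed because this subunit was called in both genotypes. The window holds 250 bases before and 50 after the start of the RefSeq transcript and lies on the plus strand at chr9:62677605-62677904 (GRCm38.p6). It was searched on both strands for 4 motifs, the AP-1 site TGANTCA, the M-CAT element CATTCC, the GC box GGGCGG and the CArG box. None of the 4 occurs in it, so it stands in lower case throughout, and its GC content is 68%.
Itga11: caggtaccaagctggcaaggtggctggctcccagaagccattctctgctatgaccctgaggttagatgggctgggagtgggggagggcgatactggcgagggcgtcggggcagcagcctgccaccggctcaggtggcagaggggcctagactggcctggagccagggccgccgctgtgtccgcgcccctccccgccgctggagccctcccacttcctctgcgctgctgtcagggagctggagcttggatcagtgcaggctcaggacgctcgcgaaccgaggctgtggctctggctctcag

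Itga1 encodes the alpha-1 chain, the collagen receptor of smooth muscle, endothelial and stromal cells, and its values lay close together. It measured 7.95 to 8.28 in CXCR5-/- AB hearts, with a median of 8.10, against 8.07 to 8.44 in CXCR5-/- Sham hearts, with a median of 8.40. In WT hearts it measured 7.999 to 8.32 after AB, with a median of 8.10, against 8.18 to 8.45 after Sham, with a median of 8.33. The AB and Sham values overlapped in both genotypes. The change was -0.20 in CXCR5-/- hearts (95% interval -0.44 to 0.04, adjusted p = 0.312) and -0.19 in WT hearts (-0.43 to 0.05, adjusted p = 0.379), so that neither passed.

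Itga7 encodes the alpha-7 chain of the laminin receptor of muscle, and was the 1 subunit of the 10 called lower. It lies on chromosome 10 and was read by probe set 10367440. In CXCR5-/- AB hearts it measured 8.06, 8.004, 8.11 and 8.18, against 8.42, 8.78 and 8.57 in CXCR5-/- Sham hearts. In WT AB hearts it measured 8.02, 7.99, 8.25 and 8.60, against 8.40, 8.75 and 8.91 in WT Sham hearts. In CXCR5-/- hearts all AB arrays were below all Sham arrays, whereas in WT hearts AB replicate 4 lay above Sham replicate 1. The change was -0.50 ± 0.14 (SE) in CXCR5-/- hearts, 0.706-fold, with an adjusted p of 0.0252, and -0.47 ± 0.14 in WT hearts, 0.723-fold, with an adjusted p of 0.0499. From the lowest, the group means (± SD, n = 4 for AB and 3 for Sham) stood in the order CXCR5-/- AB (8.09 ± 0.07), WT AB (8.22 ± 0.28), CXCR5-/- Sham (8.59 ± 0.18) and WT Sham (8.68 ± 0.26). Within AB and within Sham the values of the genotypes overlapped.

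Both calls of Itga7 lay near the threshold. In WT hearts the call was lost in 12 of the 14 fits that left out 1 array, all but those without WT AB replicate 4 and WT Sham replicate 1, and the largest adjusted p was 0.264 (change -0.36) without WT Sham replicate 3. In CXCR5-/- hearts it was lost in 4 of 14, all of which left out a CXCR5-/- array. The adjusted p was 0.0534 without AB replicate 1, 0.066 without AB replicate 2, 0.142 without Sham replicate 2 and 0.0696 without Sham replicate 3. Leaving out a WT array cannot alter the change in CXCR5-/- hearts, only the spread shared by the groups. Without the 3 Sham arrays of high Myl7 the change in CXCR5-/- hearts was -0.48.

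Itga6, the other laminin-binding alpha chain of the set, is known from endothelial and stem cells and carries no call. It measured 8.21, 8.09, 8.10 and 8.01 in CXCR5-/- AB hearts, against 7.36, 7.92 and 8.13 in CXCR5-/- Sham hearts. It measured 7.99, 7.94, 8.27 and 8.52 in WT AB hearts, against 7.98, 7.95 and 7.98 in WT Sham hearts. CXCR5-/- Sham replicate 1 was the lowest array of all, while the 3 WT Sham arrays were nearly equal. The change of 0.30 in CXCR5-/- hearts had an adjusted p of 0.239 and that of 0.21 in WT hearts an adjusted p of 0.506. Without the 3 Sham arrays of high Myl7 the value in CXCR5-/- hearts was -0.02.

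Itgb5 encodes the beta-5 chain, which pairs with Itgav as a receptor for vitronectin. It lies on chromosome 16 and was read by probe set 10435305. In CXCR5-/- AB hearts it measured 9.63, 9.46, 9.53 and 9.23, against 8.91, 9.05 and 8.85 in CXCR5-/- Sham hearts. In WT AB hearts it measured 9.15, 8.92, 9.24 and 9.50, against 8.93, 8.99 and 8.97 in WT Sham hearts. All CXCR5-/- AB arrays were above all Sham arrays, while WT AB replicate 2 lay below the whole of WT Sham. The rise was 0.53 ± 0.12 (SE) in CXCR5-/- hearts, 1.44-fold, with an adjusted p of 0.00643, and the call held with each array left out in turn. The value in WT hearts was 0.24 ± 0.12 with an adjusted p of 0.269, and it passed in no fit that left out 1 array. The group means stood in the order CXCR5-/- AB (9.46 ± 0.17), WT AB (9.21 ± 0.24), WT Sham (8.96 ± 0.03) and CXCR5-/- Sham (8.94 ± 0.10). Without the 3 Sham arrays of high Myl7 the change in CXCR5-/- hearts was 0.62 with an adjusted p of 0.0995.

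The promoter of Itgb5 lies on the plus strand at chr16:33829415-33829714 (RefSeq, GRCm38.p6) and is printed beside that of Itga11 because the 2 genes had the largest rises of the set in CXCR5-/- hearts. It held 3 GC boxes, shown in capitals, whose first bases are at -199, -63 and -34 from the start of the transcript. No AP-1, M-CAT or CArG match occurs in it, and its GC content is 65.7%.
Itgb5: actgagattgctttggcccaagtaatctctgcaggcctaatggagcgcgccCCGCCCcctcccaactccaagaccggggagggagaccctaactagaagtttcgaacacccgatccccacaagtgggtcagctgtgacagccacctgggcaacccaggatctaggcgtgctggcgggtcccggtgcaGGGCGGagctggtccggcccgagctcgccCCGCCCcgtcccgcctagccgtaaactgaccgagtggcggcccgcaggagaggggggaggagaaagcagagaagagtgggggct

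A promoter window was found for 7 of the 10 subunits, all but Itga6, Itga7 and Itgb3. The GC box was in 4 of these 7, Itga5, Itgav, Itgb1 and Itgb5, beside 35.7% of the 32851 RefSeq promoters of that length. An M-CAT match was in Itgb1 alone, beside 14.7% of promoters. AP-1 and CArG matches were in none of the 7, beside 7.81% and 1.63% of promoters. The matches describe letters and were not tested as sites.

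Itgb3 encodes the beta-3 chain, the partner of Itgav on vascular cells and of Itga2b on platelets. It lies on chromosome 11 and was read by probe set 10381809. In CXCR5-/- AB hearts it measured 5.91, 5.93, 5.85 and 5.62, against 5.88, 5.62 and 5.69 in CXCR5-/- Sham hearts. In WT AB hearts it measured 6.05, 5.82, 5.98 and 6.00, against 5.68, 5.71 and 5.23 in WT Sham hearts. The WT groups did not overlap, the lowest Sham array being replicate 3, and the CXCR5-/- groups did. The change was 0.10 ± 0.12 (SE) in CXCR5-/- hearts with an adjusted p of 0.681, and 0.42 ± 0.12 in WT hearts, 1.34-fold, with an adjusted p of 0.0361. The WT call was lost in 4 of the 14 fits that left out 1 array, all of which left out a WT array. Leaving out a CXCR5-/- array cannot alter the change in WT hearts, only the spread shared by the groups. The adjusted p was 0.095 without WT AB replicate 1, 0.0738 without WT AB replicate 3, 0.0596 without WT AB replicate 4 and 0.248 (change 0.26) without WT Sham replicate 3.

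Of the platelet genes, 1 rose in the same comparison, beside 5.1% of all genes, and the part of platelet RNA in the value of Itgb3 was not tested. Of 6 platelet markers 3 had a probe set of their own, and their mean level was 5.81 to 6.40 in CXCR5-/- AB, 5.71 to 6.23 in WT AB, 5.52 to 5.75 in CXCR5-/- Sham and 5.45 to 5.73 in WT Sham hearts. Pf4 had a value of 0.40 in CXCR5-/- hearts (adjusted p = 0.0971) and rose by 0.76 in WT hearts (adjusted p = 0.00386). Ppbp rose by 0.76 in CXCR5-/- hearts (adjusted p = 0.0164) and had a value of 0.48 in WT hearts (adjusted p = 0.178). Gp9 passed in neither, at 0.24 in CXCR5-/- hearts (adjusted p = 0.172) and 0.22 in WT hearts (adjusted p = 0.271). Itga2b, the platelet partner of Itgb3, was at -0.02 (95% interval -0.24 to 0.21) in CXCR5-/- hearts and at -0.02 (-0.25 to 0.20) in WT hearts.

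The remaining chains of RGD receptors did not pass in either genotype. Itga5, the alpha chain of the main fibronectin receptor, measured 7.93, 7.67, 7.86 and 7.65 in CXCR5-/- AB hearts, against 7.32, 7.67 and 7.57 in CXCR5-/- Sham hearts. It measured 7.62, 7.44, 7.90 and 8.05 in WT AB hearts, against 7.09, 7.55 and 7.63 in WT Sham hearts. The ranges overlapped in both genotypes, and the changes of 0.26 and 0.33 had adjusted p of 0.319 in CXCR5-/- and 0.221 in WT hearts. Itgav, the alpha-v chain shared by Itgb3 and Itgb5, measured 7.59 to 7.96 in CXCR5-/- AB, 7.51 to 7.98 in WT AB, 7.33 to 7.76 in CXCR5-/- Sham and 7.42 to 7.63 in WT Sham hearts. Its changes were 0.25 (adjusted p = 0.241) in CXCR5-/- hearts and 0.18 (adjusted p = 0.474) in WT hearts. The beta chains passed in 1 genotype each and their common alpha chain in none, but the changes of the chains were not compared with each other.

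Itga8, a nephronectin receptor chain of smooth muscle and stromal cells, varied most among replicates. It measured 6.04, 5.74, 6.09 and 6.11 in CXCR5-/- AB hearts, against 6.28, 6.87 and 5.86 in CXCR5-/- Sham hearts. It measured 5.63, 5.75, 6.17 and 5.88 in WT AB hearts, against 6.05, 6.13 and 5.84 in WT Sham hearts. The CXCR5-/- Sham arrays alone spanned most of the range seen in the study. The change was -0.34 (95% interval -0.72 to 0.04, adjusted p = 0.261) in CXCR5-/- hearts and -0.15 (-0.53 to 0.23, adjusted p = 0.728) in WT hearts. It passed in CXCR5-/- hearts without Sham replicate 3, at -0.58 with an adjusted p of 0.0426.

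Itgb1, the beta-1 chain common to most integrins of the heart, was at the 98.4th percentile of all genes by its mean signal. It measured 10.45, 10.35, 10.49 and 10.23 in CXCR5-/- AB hearts, against 10.17, 10.50 and 10.36 in CXCR5-/- Sham hearts. It measured 10.18, 10.25, 10.14 and 10.39 in WT AB hearts, against 10.18, 10.33 and 10.42 in WT Sham hearts. All 4 groups overlapped. The change was 0.03 in CXCR5-/- hearts, with a 95% interval of -0.18 to 0.25, and -0.07 in WT hearts, with an interval of -0.29 to 0.15.

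**Figure D2:**
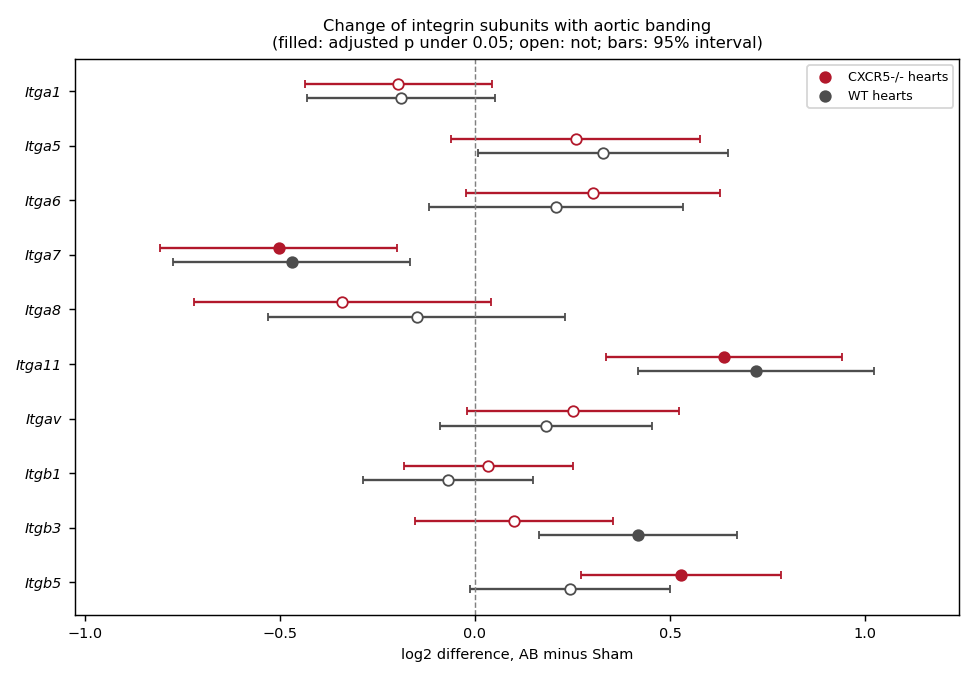
Change of each integrin subunit with AB (log2, AB minus Sham; points) with its 95% interval (bars), in CXCR5-/- hearts (red) and WT hearts (grey). Filled points passed the test at an adjusted p of 0.05 over all genes. Itga11 (0.64 in CXCR5-/- and 0.72 in WT hearts) and Itga7 (-0.50 and -0.47) are filled in both genotypes, Itgb5 (0.53) in CXCR5-/- hearts and Itgb3 (0.42) in WT hearts.

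Since Itgb3 and Itgb5 passed in different genotypes, the mean of the 2 AB changes was taken from the same fit, a comparison added after seeing the data. Of the 10 subunits 4 passed, beside 22.8% of all genes. Itga11 rose by 0.68 ± 0.10 (SE; adjusted p = 8.58e-05), Itgb5 by 0.39 ± 0.09 (adjusted p = 0.00301) and Itgb3 by 0.26 ± 0.09 (adjusted p = 0.0349), and Itga7 fell by 0.49 ± 0.10 (adjusted p = 0.00185). Each of Itga11, Itgb5 and Itga7 passed in all 25 alternatives that gave this mean, and Itgb3 in 13 of them. Itga5 came nearest among the rest, at 0.29 with an adjusted p of 0.0588. Of all genes, 25.4% had AB and Sham arrays that did not overlap in CXCR5-/- hearts and 17.1% in WT hearts. Among the 10 subunits there were 3 such genes in CXCR5-/- hearts (Itga11, Itgb5, Itga7) and 2 in WT hearts (Itga11, Itgb3).

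The question whether the genotypes differ was put to each subunit directly. For the difference of the AB changes, CXCR5-/- minus WT, limma called 0 of the 10 and 0% of all genes, with 0 of the 10 and 574 of all genes at an unadjusted p under 0.05. The difference for Itgb3 was -0.32 (95% interval -0.68 to 0.04, unadjusted p = 0.079) and for Itgb5 0.29 (-0.08 to 0.65, unadjusted p = 0.116). Thus neither the call of Itgb3 in WT hearts nor that of Itgb5 in CXCR5-/- hearts was shown to differ from the other genotype. For the other 8 subunits the differences lay between -0.19 and 0.10. These intervals reach beyond 0.3 on at least one side for every subunit, so differences of that size are not excluded with 3 or 4 arrays a group. The absence of calls does not show that the genotypes respond alike.

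After AB, 0 of the 10 subunits were called between hearts labelled CXCR5-/- and WT hearts by limma, beside 0.0451% of all genes. At an unadjusted p under 0.05 there were 1185 of all 19937 genes and 1 of the 10 subunits. That was Itgb5, at 9.23 to 9.63 in hearts labelled CXCR5-/- and 8.92 to 9.50 in WT hearts, a difference of 0.26 (95% interval 0.02 to 0.50, unadjusted p = 0.0347, adjusted p = 0.789). With the replicate number as a block, limma called 21 in place of 9 of all genes here, and again 0 of the 10. After Sham, 0 of the 10 were called, beside 0.0401% of all genes, and 0 had an unadjusted p under 0.05, beside 475 of all genes. Itga8 had the widest gap, with 5.86 to 6.87 in hearts labelled CXCR5-/- and 5.84 to 6.13 in WT hearts, a difference of 0.33 (-0.08 to 0.74, adjusted p = 0.9999). The mean of both genotype differences called 0 of the 10 as well, beside 0.0953% of all genes. Of the 10, 0 had an unadjusted p under 0.05, beside 931 of all genes. Significance analysis of microarrays called 0 of the 10 after AB and 0 after Sham. No subunit separated the genotypes without overlap after AB or after Sham, beside 3.12% and 6.85% of all genes.

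**Figure D3:**
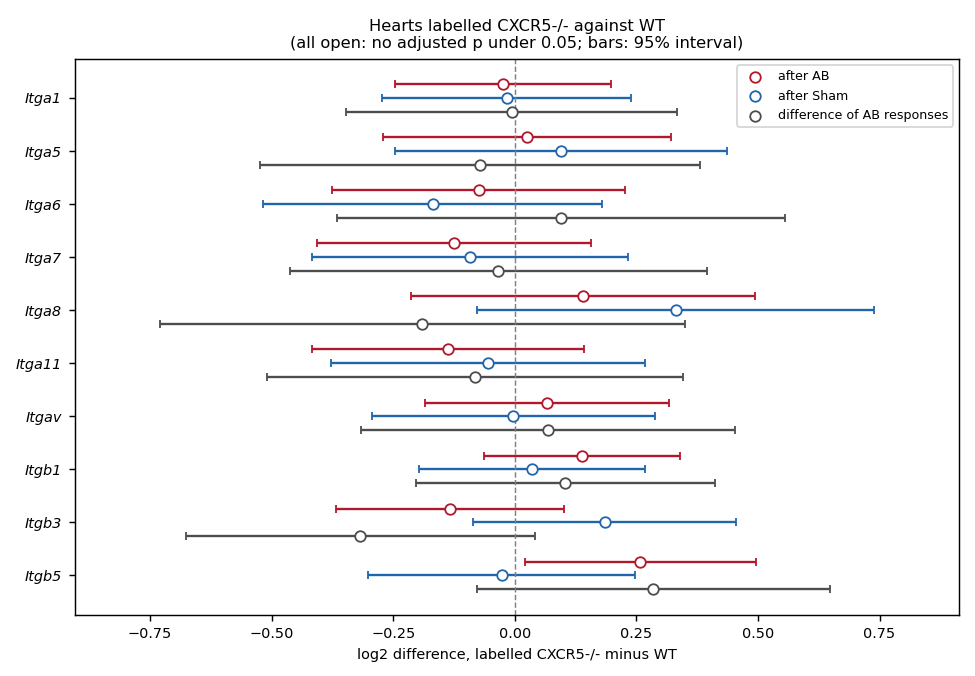
Difference of each integrin subunit between hearts labelled CXCR5-/- and WT hearts (log2, labelled CXCR5-/- minus WT) after AB (red) and after Sham (blue), and difference of the AB changes (grey), with 95% intervals. No point passed the test. The interval of Itgb5 after AB, 0.02 to 0.50, is the only one that leaves out 0, and the intervals are not adjusted for the number of tests.

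Within a group, single arrays were high or low for many of the subunits at once. WT AB replicate 4 was the highest of its group for 8 of the 10, beside 25.7% of all genes, with a median deviation of 0.26 from the group mean, while over all genes its median deviation was -0.02. WT AB replicate 2 was the lowest of its group for 7, beside 23.4% of all genes, with a median deviation of -0.23. Itga7 was high in WT AB replicate 4 together with Itga11 and Itgb5, although AB moved it the other way. In CXCR5-/- AB hearts, replicate 4 was lowest for 7 of the 10 subunits, beside 23.95% of all genes, and Itga7 and Itga8 were highest there. Among the CXCR5-/- Sham arrays, replicate 2 was highest for 7 and replicate 1 lowest for 6, where 31.4% of all genes were highest and 34.6% lowest on those arrays. Among the WT Sham arrays, replicate 3 was highest for 6 and replicate 1 lowest for 6, beside 31.7% and 35% of all genes. All of these but WT Sham replicate 3 were among the arrays of high Myl7. The pooled SD within groups ran from 0.13 for Itgb1 to 0.28 for Itga8, which is at the 95.7th percentile of all genes, whose median was 0.15.

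**Figure D4:**
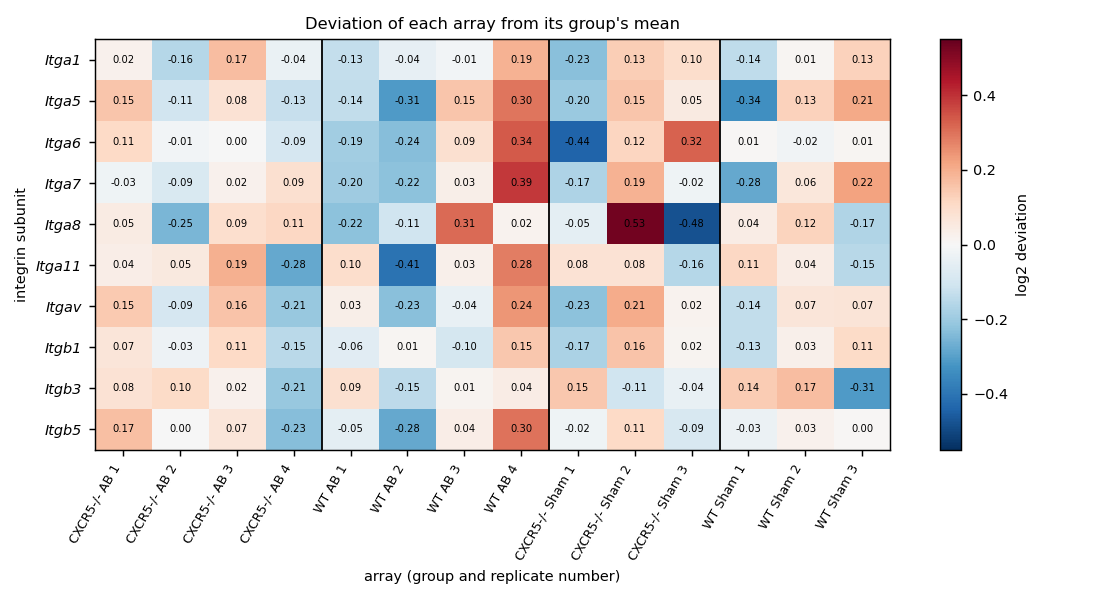
Deviation of each array from the mean of its group for each integrin subunit (log2; red above, blue below, values printed). Columns are arrays by group and replicate number, parted by black lines. WT AB replicate 4 is above its group mean for all 10 subunits, and Itga8 spans from 0.53 to -0.48 among the CXCR5-/- Sham arrays.

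Integrin subunits outside the set are carried mainly by leukocytes, epithelia and platelets, and 16 of 16 listed were measured. In CXCR5-/- hearts 3 rose and 1 fell, beside 8.28% of all genes called higher and 5.86% called lower. In WT hearts 2 rose and 0 fell, beside 5.1% higher and 4.22% lower among all genes. The median changes were 0.08 in CXCR5-/- and 0.13 in WT hearts. Itgam and Itgb2, which together form the receptor Mac-1 of macrophages and neutrophils, passed in both genotypes. Itgam rose by 0.65 (adjusted p = 0.00729) in CXCR5-/- hearts and by 0.59 (adjusted p = 0.0195) in WT hearts. Itgb2 rose by 0.47 (adjusted p = 0.00365) in CXCR5-/- hearts and by 0.55 (adjusted p = 0.00167) in WT hearts. Itga9, a partner of Itgb1 that binds tenascin-C, rose by 0.59 (adjusted p = 0.0157) in CXCR5-/- hearts, and its value in WT hearts was 0.47 (adjusted p = 0.0709). Itgb6, an epithelial partner of Itgav, fell by 0.55 (adjusted p = 0.0373) in CXCR5-/- hearts, and its value in WT hearts was -0.48 (adjusted p = 0.0945). In the mean of both genotypes, where 22.8% of all genes passed, Itga3, Itgax and Itgb8 passed as well, at -0.27 (adjusted p = 0.0231), 0.25 (adjusted p = 0.0235) and 0.31 (adjusted p = 0.0323).

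Inside the cell, integrins are joined to actin by adaptors and kinases, of which 29 of 30 had a probe set of their own, all but Ptk2. In CXCR5-/- hearts 6 rose and 1 fell, beside 8.28% of all genes called higher and 5.86% called lower. In WT hearts 6 rose and 1 fell, beside 5.1% higher and 4.22% lower among all genes. The median changes were 0.12 in CXCR5-/- and 0.13 in WT hearts. Zyx, which gathers at focal adhesions under tension, rose by 0.78 (adjusted p = 4.33e-05) in CXCR5-/- hearts and by 0.66 (adjusted p = 0.00035) in WT hearts. Actn1, an actin crosslinker that binds beta chains, rose by 0.69 (adjusted p = 0.00144) and 0.70 (adjusted p = 0.00214) in CXCR5-/- and WT hearts. Ptk2b, a kinase close to focal adhesion kinase, rose by 0.63 and 0.55 in them. Lims1, a partner of integrin-linked kinase, was the adaptor that fell. It fell by 0.57 in CXCR5-/- hearts (adjusted p = 0.00232) and by 0.50 in WT hearts (adjusted p = 0.0096). Ilk, the kinase itself, rose by 0.52 in CXCR5-/- hearts (adjusted p = 0.000382) and by 0.37 in WT hearts (adjusted p = 0.00881).

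Ligands of these receptors had larger median changes than the receptors, a difference that was not tested. Of 24 ligand genes 22 had a probe set of their own, all but Spp1 and Fbn1. In each genotype 13 rose and 1 fell. Among all genes 8.28% rose and 5.86% fell in CXCR5-/- hearts, and 5.1% rose and 4.22% fell in WT hearts. The median change of the ligands was 0.61 in CXCR5-/- hearts and 0.51 in WT hearts. Postn, a matricellular ligand of Itgav integrins, rose by 2.85 in CXCR5-/- hearts and by 2.89 in WT hearts (adjusted p = 7.01e-10 and 5.53e-10). Ccn2 rose by 2.04 in CXCR5-/- and 1.64 in WT hearts, and Fn1, the ligand of Itga5, by 1.70 and 1.53. Col1a1, a fibrillar collagen bound by Itga11, rose by 1.41 in CXCR5-/- hearts and by 1.53 in WT hearts. The ligand that fell was Lama5, a laminin chain, by 0.73 in CXCR5-/- hearts (adjusted p = 0.00184) and by 0.53 in WT hearts (adjusted p = 0.025). The other laminin chains of the list passed in neither genotype. Nor did Vtn, the vitronectin bound by Itgb5, at 0.25 in CXCR5-/- hearts (adjusted p = 0.497) and 0.02 in WT hearts (adjusted p = 0.98). No gene of the 3 lists was called between genotypes by limma, and the lists describe counts without a test of the list. Ccn1, a matricellular ligand singled out after its values were seen, lay at 9.78 to 10.34 in AB hearts labelled CXCR5-/- and at 9.36 to 9.77 in WT AB hearts, without overlap. The difference was 0.60 (unadjusted p = 0.000346, adjusted p = 0.15). Its AB change was 1.45 in hearts labelled CXCR5-/- and 0.59 in WT hearts, and the difference of 0.86 did not pass (unadjusted p = 0.000619, adjusted p = 0.9998). Without CXCR5-/- AB replicate 4, Ccn1 (0.71, adjusted p = 0.0431) and Ccn2 (0.65, adjusted p = 0.0442) were called higher after AB in hearts labelled CXCR5-/-, and no other alternative called a gene of these lists between genotypes.

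**Figure D5:**
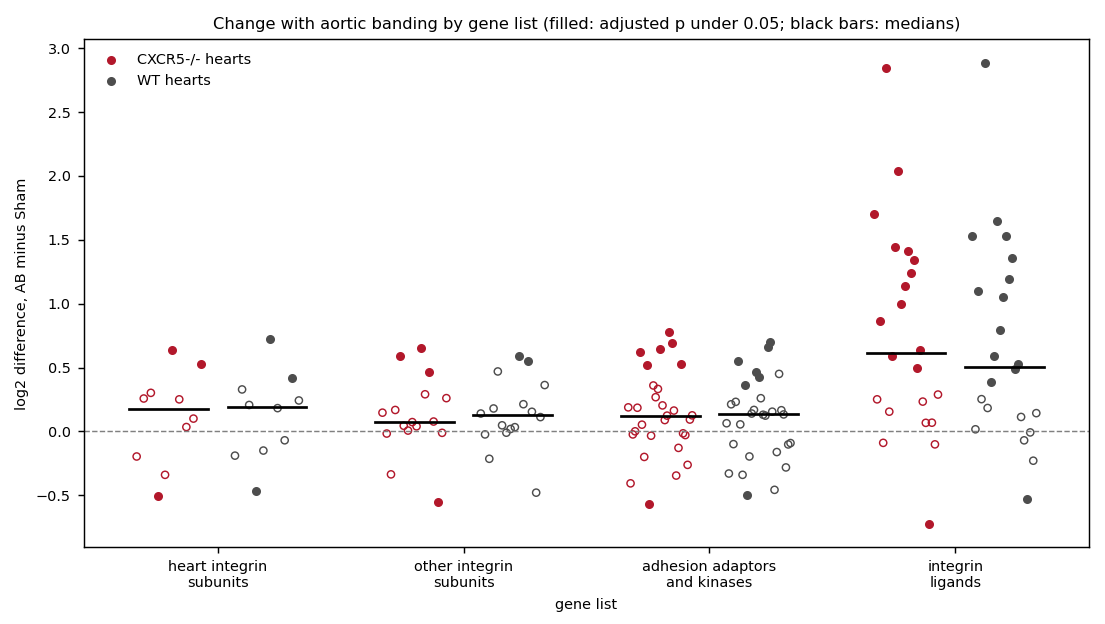
Change with AB (log2, AB minus Sham) of each measured gene in 4 lists, in CXCR5-/- hearts (red) and WT hearts (grey). Filled points passed the test at an adjusted p of 0.05 and black bars are list medians. The ligand medians, 0.61 in CXCR5-/- and 0.51 in WT hearts, lie above those of the heart integrin subunits, 0.18 and 0.20.

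Markers of the cell types that carry these subunits moved with AB too, and their part in the changes of the subunits was not tested. The counts below stand beside 8.28% of all genes higher and 5.86% lower in CXCR5-/- hearts. In WT hearts the shares were 5.1% and 4.22%. Of 10 fibroblast markers, 8 rose in CXCR5-/- hearts and 5 in WT hearts, and 3 of them, Col1a1, Col1a2 and Col3a1, are also in the ligand list. The mean fibroblast level was 9.36 to 9.63 in CXCR5-/- AB and 9.13 to 9.70 in WT AB hearts. It was 8.55 to 8.84 in CXCR5-/- Sham and 8.63 to 8.79 in WT Sham hearts. No AB array overlapped a Sham array, as for Itga11, but this was not particular to fibroblast markers. The means of the macrophage markers, the ligands (lowest AB 8.489, highest Sham 8.205) and the other integrin subunits (5.579 and 5.549) did not overlap either. Of 10 cardiomyocyte markers, 3 fell in CXCR5-/- hearts (Myh6, Tnni3 and Ryr2) and 1 in WT hearts (Ryr2), and their mean level was 12.15 to 12.25 in CXCR5-/- AB, 12.18 to 12.25 in WT AB, 12.34 to 12.37 in CXCR5-/- Sham and 12.37 in WT Sham hearts. These lay lower after AB without overlap, as Itga7 did in CXCR5-/- hearts. Of 10 macrophage markers, 7 rose in CXCR5-/- hearts and 4 in WT hearts, and their mean level was 7.18 to 7.46 in CXCR5-/- AB, 7.13 to 7.27 in WT AB, 6.64 to 6.74 in CXCR5-/- Sham and 6.82 to 6.91 in WT Sham hearts. Endothelial markers had 1 of 10 called higher in each genotype, Emcn, and 0 called lower. Most of the list went the other way. The change was above 0 for 4 of 10 in CXCR5-/- hearts (median -0.087) and for 2 of 10 in WT hearts (median -0.125). In the mean of both genotypes, where 22.8% of all genes passed, Kdr was called lower (-0.36, adjusted p = 0.0261). Smooth muscle and pericyte markers had 2 higher and 1 lower in CXCR5-/- hearts and 1 lower in WT hearts. Of 5 lymphocyte markers and 4 atrial markers, limma called 0 in either genotype, with 0 and 1 at an unadjusted p under 0.05 in CXCR5-/- hearts and 2 and 0 in WT hearts. Significance analysis of microarrays called 1 atrial marker lower in CXCR5-/- hearts and none of these otherwise.

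The genes nearest in pattern to each subunit that passed were found by the root mean square difference of log2 values over the 14 arrays, after each gene was centred on its own mean, among 17026 genes. For Itga11 they were Islr, a secreted leucine-rich protein of stromal cells, at 0.101, and Rflnb, at 0.106, where the median over all genes was 0.41. The nearest to Itga7 were Osbpl3 at 0.0825 and Alkbh5, an RNA demethylase, at 0.0866, with a median of 0.349. Cdkn2b, an inhibitor of the cell cycle, lay at 0.0901 from Itgb3 and Susd3 at 0.0996, with a median of 0.2505. Uggt2, an enzyme of glycoprotein folding, lay at 0.0962 from Itgb5 and Iqgap1, a scaffold of the actin cytoskeleton, at 0.102, with a median of 0.303.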

How the data were processed

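Affymetrix mouse ST 1.0 arrays of 14 left ventricles were processed by the authors with RMA, and the deposited table holds log2 values per probe set, used as deposited. The RMA settings and the genome build are not given in the sources used here. Groups and replicate numbers came from the sample labels, and replicates are separate mice. The table had 34760 probe sets. The annotation gives a single symbol for 21640 of them, more than one for 1321 and none is listed for 11799, and genes were named only from the single-symbol kind. Symbols were updated through RefSeq (GRCm38.p6), which 21553 matched. A gene with several probe sets (954 of 19937) kept the one with the highest mean, and each integrin subunit had 1. Array medians were 5.19 to 5.30. The number of arrays limits the precision.

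The moderated test of limma 3.58.1, run under R 4.3.3, was applied to 1 fit of 4 group means, with 10 residual and 7.13 prior degrees of freedom and Benjamini-Hochberg adjustment over all 19937 genes. The code was tested on simulated data. Results were recomputed with array weights, other models of the variance, a filter on means under the 30th percentile, other normalizations and probe set rules, fits of the compared groups alone, a replicate block, with Myl7 as a covariate, arrays left out, and with significance analysis of microarrays, the test named in the study's methods, with all distinct permutations. The labels do not say what a replicate number stands for. Between CXCR5-/- AB and WT AB, same-numbered arrays had r of 0.125, 0.22, 0.157 and 0.185 over all genes. But CXCR5-/- AB replicates 2, 3 and 4 correlated better with a WT AB array of another number. A pairing by number was therefore not shown, and the main fit held no block.

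Named genes are the 10 subunits, each other integrin subunit that passed, up to 4 genes of the adaptor and ligand lists that passed in both genotypes with the largest mean change, the 2 genes nearest in pattern to each subunit that passed, and Cxcr5, Myl7 and Alb as checks. Myl2, Lama5, Ccn1, Itga2b, Ilk, Vtn and the cell type markers named were added after their values were seen. The subunits and lists were chosen with earlier results of these data known.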

Additional observations from a re-analysis of the deposited data

Results flagged for a closer look

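Rflnb, the second nearest in pattern to Itga11, had 1 WT AB array far from the rest of its group. Replicate 2 lay at 7.64 and the other 3 at 7.99 to 8.03, so that the gap was 0.887 of the whole range, above Dixon's critical value for 4 arrays. It was the only one among 66 gene and group pairs, of which chance gives about 1 in 20. Itga11 and 6 more subunits were also lowest of their group on this array. For Itga11 this is not independent, as Rflnb was picked for its likeness to Itga11 over the same arrays.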

How the results depend on the processing

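Over 27 alternatives and 7 comparisons the 10 subunits gave 1830 values, of which 1685 kept direction and call. A call was lost in 47 and gained in 12, 86 values without a call changed sign, and 0 reversed with a call. Most of the values had no call in the main fit to lose. Itga7 lost its call in 18 of 27 alternatives in WT hearts and in 7 of 27 in CXCR5-/- hearts. Itgb3 lost its call in 8 of 27 in WT hearts and in 12 of 25 for the mean of both genotypes. Of the 3 subunits called for AB in WT hearts, 1 passed, Itga11, when every probe set was tested, in a fit of the compared groups only and by significance analysis of microarrays, and 1 to 3 passed with 1 array left out. Of the 3 called in CXCR5-/- hearts, 0 passed with the 3 Sham arrays of high Myl7 left out together, which leaves 1 CXCR5-/- Sham array, assumed to vary like the other groups. The cause was not tested, and in this fit the smaller number of arrays and the absence of high Myl7 cannot be told apart. Itga7 in CXCR5-/- hearts was also lost when every probe set was tested (adjusted p = 0.0687) and with Myl7 as a covariate (0.0816), and Itgb3 in WT hearts with array weights (0.0528). Itga1 passed in CXCR5-/- hearts with array weights (-0.25, adjusted p = 0.0454). Over their alternatives, the adjusted p of Itga11 ran up to 0.0305 in WT hearts, and that of Itgb5 in CXCR5-/- hearts up to 0.0995.

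A pairing of samples by number was not shown in any comparison. For AB against Sham, and between genotypes after Sham, not every same-numbered pair correlated above 0.1. With the replicate block each AB comparison called the same number of subunits, 3 in CXCR5-/- and 3 in WT hearts. The mean of both genotypes called 5 in place of 4, with Itga1 added at -0.22 (adjusted p = 0.0487). Over all genes the block called 3623 in place of 2818 in CXCR5-/- hearts and 2636 in place of 1858 in WT hearts, and 8 after Sham, as without it. An array correlated best with its own number in 1 of 3 pairs in CXCR5-/- hearts, 2 of 3 in WT hearts, 2 of 3 after Sham and 1 of 4 after AB. After AB all 4 same-numbered correlations were above 0.1, but most arrays correlated better with another number. The block changed no call of a subunit there.

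Counts over all genes moved more. For AB in CXCR5-/- hearts 2818 became 4770 with array weights and 844 without the 3 Sham arrays, and 1858 in WT hearts became 3408 with array weights and 1002 to 2120 with 1 array left out. After AB the 9 genes called between genotypes became 4 with only the compared groups, 5 without the 3 Sham arrays and 4 to 34 with 1 array left out. After Sham the 8 became 39 with array weights, 5 with every probe set, 1 without the 3 Sham arrays and 3 to 8 with 1 left out. For the mean of both genotype differences 19 became 48, 6 without the 3 arrays, and 11 to 23. Among ligands 11 to 13 passed as higher in CXCR5-/- hearts and 10 to 13 in WT hearts over 27 alternatives, and among adaptors 4 to 9 and 5 to 9. Other integrin subunits ran from 0 to 5 higher in CXCR5-/- hearts and from 1 to 4 in WT hearts.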
